A study of Mus musculus with 12 samples.

Results

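B cell and plasma cell genes were examined in mammary tumors of MMTV-Neu mice treated with retinoid X receptor (RXR) agonists. The set held the 9 genes Ms4a1, Cd79a, Cd79b, Pou2af1, Ighm, Igha, Igkc, Jchain and Mzb1, which were taken by gene name from the 54532 genes of the count and FPKM tables (FPKM is a count scaled to gene length and library size). The rule used gene names and no measured value, but earlier results of these data were known when the set was chosen. Poly(A) RNA was sequenced from 12 tumors, 1 per mouse, in 3 groups of 4: mice fed the control diet, mice fed MSU-42011 and mice fed bexarotene, each compound at 100 mg per kg of diet for 10 days. MSU-42011 and bexarotene are both ligands that activate RXR, a nuclear receptor. All mice, controls included, carried the MMTV-Neu transgene, which places the wild-type Neu (Erbb2) gene under the mouse mammary tumor virus promoter, so that it is expressed in mammary tissue. The mice were female, their age is not given in the sources used here, and treatment began when tumors measured 4 mm. Each library was made from a piece of whole tumor, so lower RNA for a gene can come from fewer cells of a type or from less RNA per cell, and these cannot be told apart.

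B cells carry membrane immunoglobulin on their surface. Its signal passes through the Cd79a and Cd79b proteins, and Ms4a1 encodes CD20, a surface protein of B cells. After activation, B cells can become plasma cells, which lose CD20 and transcribe heavy and light chain genes at very high levels. The J chain protein links immunoglobulin A (IgA) into dimers and immunoglobulin M (IgM) into pentamers, and the IgA dimers are carried across mammary and gut epithelium into milk and mucus.

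The genes lie on different chromosomes, except for both heavy chain genes. Positions are those of the deposited tables, which equal GENCODE M21 positions on mouse build GRCm38 for 98.3% of the genes found in both. Ighm, the constant region of IgM, is on chromosome 12 (113418558 to 113422730, minus strand), and Igha, the constant region of IgA, lies on the same strand at 113254830 to 113260236. Igkc, the constant region of the kappa light chain, is a single exon of 532 bases on chromosome 6 (70726435 to 70726966). It lies inside the long noncoding RNA gene Gm30211 on the same strand but shares 0 exon bases with it. Jchain is on chromosome 5 (88519809 to 88527891), Cd79a on chromosome 7 (24897381 to 24902197), Pou2af1 on chromosome 9 (51213708 to 51240080), Cd79b on chromosome 11 (106311341 to 106314762) and Ms4a1 on chromosome 19 (11249675 to 11266241). Mzb1 shares 695 of its 1215 exon bases with SPATA24 on the same strand, so its counts are uncertain. For the other members that overlap another gene (Ms4a1 and Pou2af1), no exon bases were shared.

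Promoters of 3 of the 9 genes were taken from a table of RefSeq promoters (GRCm38.p6), each from 250 bases before to 50 bases after the RefSeq start site. These start sites differ from the gene starts given above, and motif positions count from the start sites. For Cd79a, the gene start given above (24897381) lies among the 250 bases before the start site. These 3 genes are shown because the table supplied their promoters, not because of their levels. The highest tumor was bexarotene replicate 1 for Jchain, MSU-42011 replicate 2 for Cd79a and bexarotene replicate 3 for Pou2af1. Whether promoter sequence relates to these levels was not tested. Exact matches on either strand to 5 motifs are in capitals: the octamer ATGCAAAT of immunoglobulin promoters, which the Pou2af1 protein helps to activate, the XBP1 element TGACGTGG, the PU box GAGGAA, the EBF core CCCNNGGG and the nuclear receptor half-site AGGTCA.
Jchain: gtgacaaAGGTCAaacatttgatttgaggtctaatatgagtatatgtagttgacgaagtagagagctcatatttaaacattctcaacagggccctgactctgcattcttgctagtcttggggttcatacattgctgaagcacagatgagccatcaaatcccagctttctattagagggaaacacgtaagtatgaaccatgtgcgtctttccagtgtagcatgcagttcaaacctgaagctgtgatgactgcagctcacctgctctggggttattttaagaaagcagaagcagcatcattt
Cd79a: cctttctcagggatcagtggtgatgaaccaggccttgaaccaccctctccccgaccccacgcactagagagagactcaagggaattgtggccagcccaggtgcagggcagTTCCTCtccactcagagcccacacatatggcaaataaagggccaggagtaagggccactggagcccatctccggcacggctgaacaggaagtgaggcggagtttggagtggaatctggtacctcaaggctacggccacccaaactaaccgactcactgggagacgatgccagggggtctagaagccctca
Pou2af1: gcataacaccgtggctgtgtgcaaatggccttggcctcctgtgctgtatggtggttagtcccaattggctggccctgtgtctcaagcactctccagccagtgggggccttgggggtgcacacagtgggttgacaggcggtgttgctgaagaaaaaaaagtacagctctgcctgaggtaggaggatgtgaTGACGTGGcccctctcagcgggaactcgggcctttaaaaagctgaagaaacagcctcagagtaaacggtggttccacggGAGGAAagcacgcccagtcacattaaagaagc
The Jchain window (chr5:88527848-88528147, minus strand) held 1 nuclear receptor half-site, whose first base lies at −243 from the RefSeq start site. Such a half-site was present in 16.3% of the 32851 promoters in the table. The Cd79a window (chr7:24897247-24897546, plus strand) held a PU box on the opposite strand from −140, and 28.3% of promoters held this motif. The Pou2af1 window (chr9:51213440-51213739, plus strand) held a PU box from position 19 after the start and the XBP1 element from −61. The latter was found in 0.676% of promoters. The octamer, found in 1.74% of promoters, and the EBF core, found in 13.7%, had no exact match in the 3 windows. An exact search does not count sites that differ by 1 base, such as ctcaaggg in the Cd79a window for the EBF core. Absence of a match is therefore not absence of a site. The GC content was 42.3% for Jchain, 58.3% for Cd79a and 55.3% for Pou2af1, against a median of 52.7% over all promoters.

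The heavy and light chain genes were the most abundant members and Ms4a1 was the least. Per length, the mean over 12 tumors was 5.82 FPKM for Ighm, 4.96 for Igkc and 2.20 for Igha. It was 0.467 FPKM for Jchain, 0.348 for Pou2af1, the transcriptional coactivator also called OCA-B, 0.296 for Cd79b, 0.162 for Cd79a, 0.126 for Mzb1, an endoplasmic reticulum protein of antibody-secreting cells, and 0.0165 for Ms4a1. The ranges over tumors overlapped between all neighbours in this order. Ighm exceeded 38.2% of the 15504 genes kept by the low count filter of edgeR and Jchain exceeded 6.78%. Total counts on genes ran from 16583413 to 25925027 per library, and at this depth 3 counts corresponded to 0.111 to 0.184 CPM (counts scaled to library size) after TMM normalization. Floors and the intervals on shares of counts cover counting error only. The intervals on log2 fold changes also include the spread between tumors.

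The filter was passed by 5 members (Pou2af1, Ighm, Igha, Igkc and Jchain) and not by Ms4a1, Cd79a, Cd79b and Mzb1. A gene could pass through its level in 1 group, so membership among the tested genes is not used as support for a difference. The other 4 members are described by their counts and by exact permutation tests only.

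**Figure D1:**
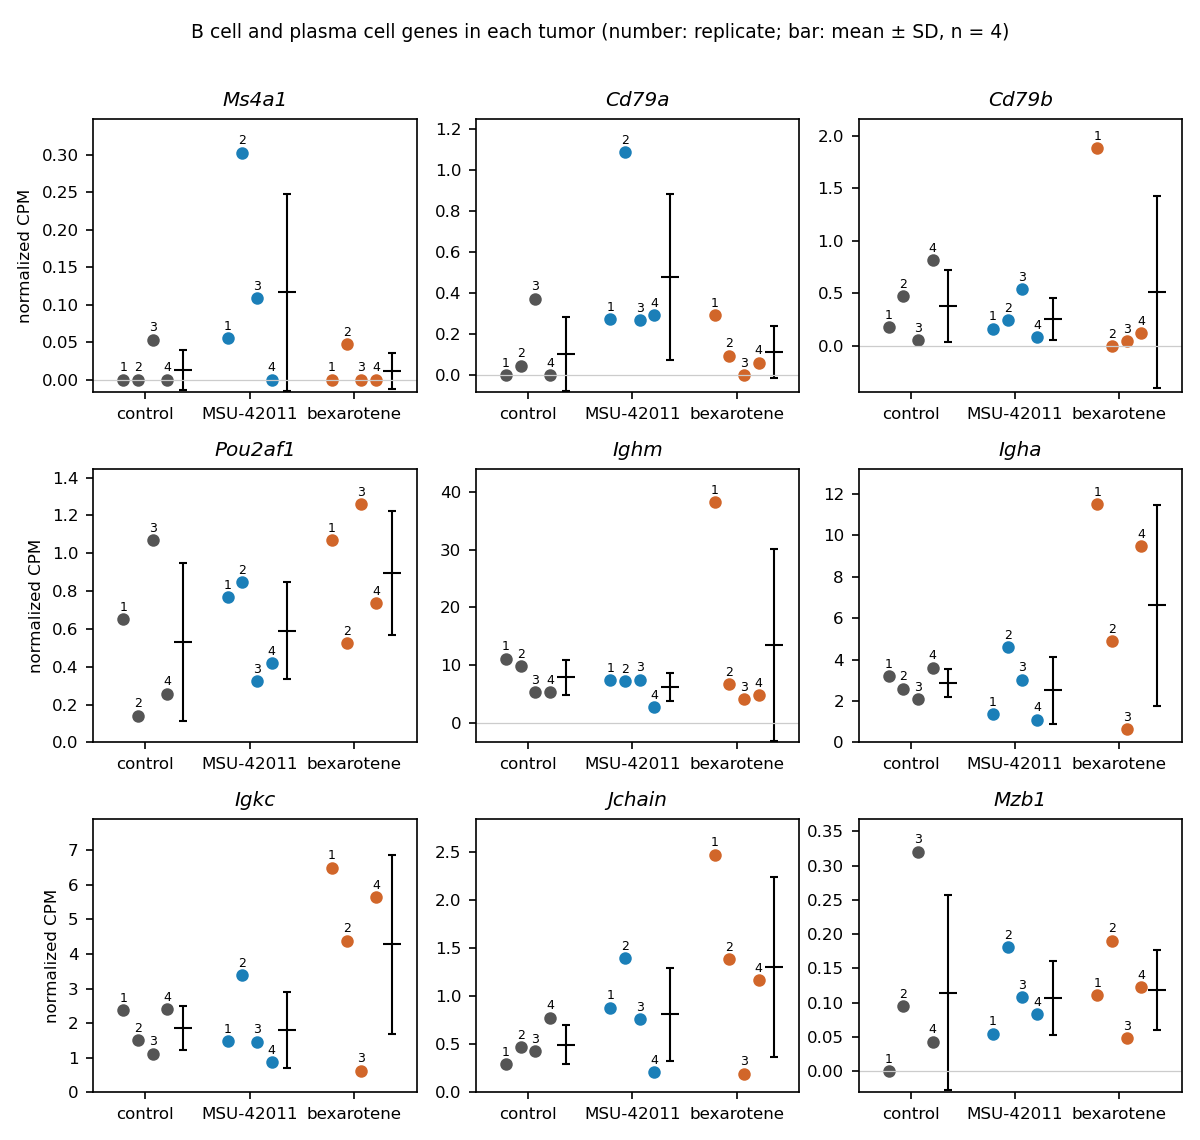
Level of each of the 9 genes in normalized CPM (y axis, a separate scale per gene) in the 12 tumors, by group (x axis). Points are tumors with their replicate numbers, and black bars are the mean ± SD of 4 tumors. Igha, Igkc and Jchain are above every control in bexarotene replicates 1, 2 and 4 and lowest in bexarotene replicate 3, and Ighm reaches 38.3 CPM in bexarotene replicate 1 alone.

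One library stood apart before any comparison. Bexarotene replicate 1 lay at −115 on the first principal component (33.6% of the variance), where the other tumors lay between −16.2 and 34.2. Its 6 fibroblast markers summed to 10300 CPM, against 65.1 to 390 in controls, 148 to 385 with MSU-42011 and at most 779 in the other bexarotene tumors. Its 10 macrophage markers summed to 1623 CPM against 186 to 510 in the other 11 tumors, and its 7 mammary epithelial markers to 3017 CPM against 4549 to 6287. Of the 9 members, 5 (Ighm, Igkc, Igha, Jchain and Cd79b) were highest in this tumor, as were 19.1% of all genes tested. The part of these other cell types in the results below was not tested. Fold changes with bexarotene, correlations and gene lists are therefore also given without this tumor.

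Ms4a1 was close to absent. Its counts were 0, 0, 1 and 0 in control replicates 1 to 4, 1, 5, 2 and 0 with MSU-42011, and 0, 1, 0 and 0 with bexarotene. Thus 7 of 12 libraries had 0 counts, which allows up to 3 counts in each, and MSU-42011 tumors held 8 of the 10 counts. MSU-42011-treated tumors averaged 0.116 ± 0.132 CPM (SD, n = 4) and control tumors 0.0134 ± 0.0267 (exact two-sided permutation test, p = 0.143). Group ranges overlapped, and the mean level in both groups was under or near the value of 3 counts.

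Cd79a, a signalling subunit of the B cell receptor, was counted 0, 1, 7 and 0 times in controls, 5, 18, 5 and 7 times with MSU-42011 and 8, 2, 0 and 1 times with bexarotene. All 4 MSU-42011-treated tumors had at least 5 counts, while 2 control tumors and 1 bexarotene tumor had 0. Mean levels were 0.482 ± 0.405 CPM with MSU-42011, 0.105 ± 0.180 in controls and 0.113 ± 0.128 with bexarotene (SD, n = 4 each). The 4.58-fold ratio of MSU-42011 to control had an exact permutation p of 0.114, the same as against bexarotene, and the smallest p these groups allow is 0.0286. Control replicate 3 at 0.374 CPM lay above 3 of the 4 MSU-42011 tumors, and bexarotene replicate 1 at 0.295 CPM also lay above 3 of them, so group ranges overlapped in both comparisons. The other bexarotene tumors reached at most 0.0953 CPM, below the lowest MSU-42011 tumor at 0.270, and without replicate 1 the exact permutation p was 0.0571. With 4 against 3 tumors this two-sided test gives no smaller p, even at complete separation, so it could not pass 0.05. Leaving out replicate 1 was chosen after its values were seen.

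Cd79b, the partner subunit, was counted 3, 10, 1 and 19 times in controls, 3, 4, 10 and 2 times with MSU-42011 and 51, 0, 1 and 2 times with bexarotene. Its level in bexarotene replicate 1 was 1.88 CPM, and the other bexarotene tumors ranged from 0 to 0.122 CPM. The bexarotene mean was 1.35 times the control mean with this tumor and 0.150 times without it (exact permutation p = 0.971 and p = 0.114). The MSU-42011 mean was 0.678 times the control mean (exact permutation p = 0.629). Against bexarotene it was 0.503 times with this tumor and 4.53 times without it (exact permutation p = 0.971 and p = 0.114), so the direction turned on a single tumor.

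Pou2af1 was counted between 3 and 29 times per tumor. Control tumors ranged from 0.142 to 1.07 CPM, MSU-42011 tumors from 0.325 to 0.847 and bexarotene tumors from 0.524 to 1.26, with means of 0.530 ± 0.420, 0.590 ± 0.257 and 0.896 ± 0.329 CPM (SD, n = 4 each). The highest tumor was bexarotene replicate 3, which was the lowest for Igha, Igkc and Jchain. Mzb1 counts were 0, 2, 6 and 1 in controls, 1, 3, 2 and 2 with MSU-42011 and 3, 4, 1 and 2 with bexarotene. The 3 group means of Mzb1 lay between 0.107 and 0.118 CPM, at or under the value of 3 counts, and the exact permutation p of its 3 comparisons was between 0.743 and 0.971.

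Igha and Igkc were higher in most bexarotene-treated tumors. Igha stood at 3.20, 2.601, 2.08 and 3.62 CPM in control replicates 1 to 4, at 1.37, 4.60, 3.03 and 1.09 with MSU-42011, and at 11.5, 4.91, 0.629 and 9.49 with bexarotene. Igkc stood at 2.37, 1.51, 1.12 and 2.41 CPM in controls, at 1.48, 3.39, 1.46 and 0.879 with MSU-42011, and at 6.49, 4.38, 0.629 and 5.63 with bexarotene. For both genes 3 of 4 bexarotene tumors exceeded every control and every MSU-42011 tumor, and the fourth, replicate 3, was the lowest of all 12. The coefficient of variation of Igha was 73.3% with bexarotene, 64.5% with MSU-42011 and 23.4% in controls. That of Igkc was 60.4%, 60.7% and 34.5% in the same order.

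Jchain followed a similar order at a lower level. It stood at 0.296, 0.473, 0.427 and 0.775 CPM in controls (5, 10, 8 and 18 counts), at 0.879, 1.39, 0.757 and 0.209 with MSU-42011 (16, 23, 14 and 5 counts), and at 2.47, 1.38, 0.194 and 1.16 with bexarotene (67, 29, 4 and 19 counts). Again bexarotene replicates 1, 2 and 4 exceeded all controls, and bexarotene replicate 3 was the lowest tumor. MSU-42011 replicates 1 and 2 also exceeded all controls.

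Ighm differed from these 3 genes. It stood at 11.1, 9.84, 5.29 and 5.29 CPM in controls, at 7.41, 7.14, 7.47 and 2.64 with MSU-42011, and at 38.3, 6.72, 4.11 and 4.78 with bexarotene. Outside bexarotene replicate 1, bexarotene tumors were no higher than controls: their range of 4.11 to 6.72 CPM overlapped the control range and reached below it.

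None of the members passed the threshold in any comparison. The edgeR quasi-likelihood F test with Benjamini-Hochberg adjustment over 15504 genes called 0 of 5 tested members among the 3 groups, and 0% of all genes tested. In each of the 3 pairwise comparisons it likewise called 0 members, with 0% of all genes called. At an unadjusted p under 0.05 there were 657 genes among the 3 groups, 309 in the comparison of MSU-42011 with the control group, 998 in that of bexarotene with the control group and 612 between both agonists, and 0 of them were members. Across all genes DESeq2 called 5, 1, 6 and 25 in these tests, again with 0 members. Groups that did not overlap were found for 0 of the 5 tested members in each pair of groups, beside 1.97%, 2.03% and 1.17% of all genes tested in the same order of comparisons.

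In bexarotene-treated tumors, all 5 tested members had a log2 fold change above 0 against control, as did 8572 of the 15504 genes. The median over the 5 members was 1.20, and over all genes it was 0.0296. When bexarotene replicate 1 was left out, it was above 0 for 4 of the 5, with a median of 0.79. Of the untested members, the ratio of means to control was 0.892 for Ms4a1, 1.07 for Cd79a, 1.35 for Cd79b and 1.03 for Mzb1. The log2 fold change was 1.39 ± 0.67 for Jchain (SE; 95% interval −0.08 to 2.85; edgeR adjusted p = 0.7999), 1.21 ± 0.60 for Igkc (interval −0.10 to 2.51; adjusted p = 0.801) and 1.20 ± 0.67 for Igha (interval −0.26 to 2.67; adjusted p = 0.846). On means of normalized CPM these were ratios of 2.64, 2.31 and 2.31 (exact permutation p = 0.143, 0.143 and 0.257). Without bexarotene replicate 1 the log2 fold changes were 0.86, 0.93 and 0.79 (edgeR adjusted p = 0.978 for each).

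Pou2af1 and Ighm each had a log2 fold change of 0.78 with bexarotene (SE 0.57 and 0.66; edgeR adjusted p = 0.887 and 0.899). That of Ighm turned to −0.60 without bexarotene replicate 1, whereas that of Pou2af1 was then 0.68. Thus the direction for Ighm rested on a single tumor.

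In MSU-42011-treated tumors, 2 of the 5 tested members had a log2 fold change above 0 against control, as did 7806 of the 15504 genes, and the medians were −0.049 over the members and 0.0016 over all genes. The log2 fold change was 0.68 ± 0.68 for Jchain (SE; 95% interval −0.81 to 2.16; edgeR adjusted p = 1.000), 0.16 ± 0.59 for Pou2af1, −0.05 ± 0.60 for Igkc, −0.20 ± 0.67 for Igha and −0.35 ± 0.66 for Ighm. Intervals of this width, from −1.66 to 1.27 for Igha, leave changes of more than 2-fold in either direction within reach.

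Both RXR agonists were given at the same dose and for the same time. They were therefore also compared directly, over the 5 members that passed the filter. The log2 fold change of MSU-42011 against bexarotene was below 0 for 5 of 5, with a median of −1.14, while the median over all genes was −0.0243 and 6989 of the 15504 genes lay above 0. For Igha it was −1.40 ± 0.68 (95% interval −2.87 to 0.07), for Igkc −1.25 ± 0.60 (interval −2.56 to 0.05) and for Ighm −1.13 ± 0.67 (interval −2.58 to 0.31). Jchain and Pou2af1 stood at −0.71 ± 0.66 and −0.61 ± 0.57. The edgeR adjusted p was 0.997 for each of the 5. Without bexarotene replicate 1 the values for Igha, Igkc and Pou2af1 were −0.99, −0.98 and −0.52, that of Jchain was −0.19, and that of Ighm turned to 0.24. The comparisons share tumors, so they are not independent of each other. Igha, Igkc and Jchain also varied together from tumor to tumor (below), so the 5 members are not separate observations. The members left out by the filter did not share 1 direction. Their ratios of means, MSU-42011 to bexarotene, were 9.78 for Ms4a1, 4.27 for Cd79a, 0.503 for Cd79b and 0.908 for Mzb1, all at low counts.

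**Figure D2:**
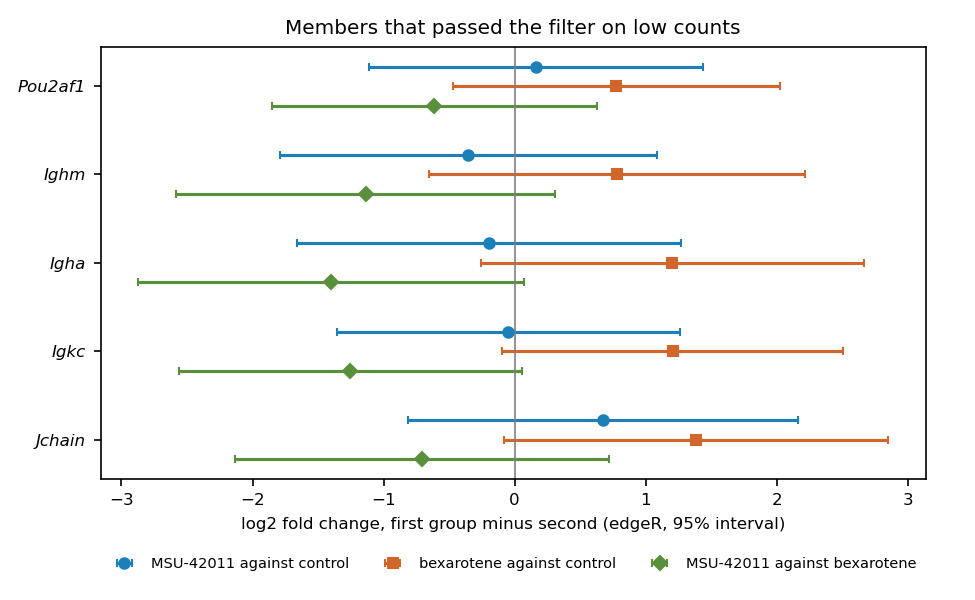
Log2 fold change (x axis) of the 5 members that passed the filter on low counts (y axis) in 3 comparisons of 4 against 4 tumors, as edgeR estimates with 95% intervals. All 15 intervals contain 0. With bexarotene against control, the estimates lie between 0.78 for Pou2af1 and 1.39 for Jchain.

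The question whether the members varied together from tumor to tumor was addressed over all 36 pairs, as correlations of log2(normalized CPM + 0.5) over 12 tumors. Igha, Igkc and Jchain varied together, and so did Ms4a1 and Cd79a, the latter at very low counts. Pearson's r passed the threshold after Benjamini-Hochberg adjustment for 4 of the 36 pairs in a permutation test of 100000 resamples. Igha and Igkc had r = 0.958 (permutation p = 1e-05, the smallest these resamples can give; adjusted p = 0.00036) and rho = 0.965 (adjusted permutation p = 0.00036). The r was 0.928 without the 2 tumors farthest from the median of Igha, 0.943 without bexarotene replicate 1, and 0.958 once group means were removed. The pair passed in each of 12 fits that left out 1 tumor.

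Igkc and Jchain had r = 0.865 (permutation p = 0.00027, adjusted p = 0.00486) and rho = 0.860 (permutation p = 0.00055, adjusted p = 0.0099). It was 0.806 without the 2 farthest tumors, and it passed in all 12 fits that left out 1 tumor. Igha and Jchain had r = 0.830 (permutation p = 0.00083, adjusted p = 0.00996) and rho = 0.825 (permutation p = 0.00145, adjusted p = 0.0174). It passed in 11 of the 12 fits, with r = 0.749 and an adjusted permutation p of 0.0751 without bexarotene replicate 1. The levels of these genes share each library's scaling.

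The fourth pair was Ms4a1 and Cd79a, with r = 0.846 (permutation p = 0.00281, adjusted p = 0.0253) and rho = 0.605 (permutation p = 0.0415, adjusted p = 0.249). It rested on few tumors. Both genes were highest in MSU-42011 replicate 2, where the counts were 5 and 18, and r was 0.516 without the 2 farthest tumors. It missed the threshold in 4 of the 12 fits that left out 1 tumor: control replicate 3, MSU-42011 replicate 1, MSU-42011 replicate 2 or bexarotene replicate 3. Cd79a and Cd79b, which pair as proteins in the receptor, had r = 0.035 (permutation p = 0.905, adjusted p = 0.943) and rho = 0.021 at these low counts.

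Ighm had r = 0.600 with Igha, 0.565 with Igkc and 0.620 with Jchain (adjusted permutation p = 0.199, 0.212 and 0.168), and its rho with them was 0.406, 0.434 and 0.399 (adjusted permutation p = 0.535 each). Without bexarotene replicate 1 these r values were 0.323, 0.295 and 0.260. Its highest r was with Cd79b, at 0.747 (permutation p = 0.0135, adjusted p = 0.0976), which was 0.324 without bexarotene replicate 1. Pou2af1 had r between −0.173 and 0.281 with the other 8 members, and Mzb1 between −0.212 and 0.541.

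**Figure D3:**
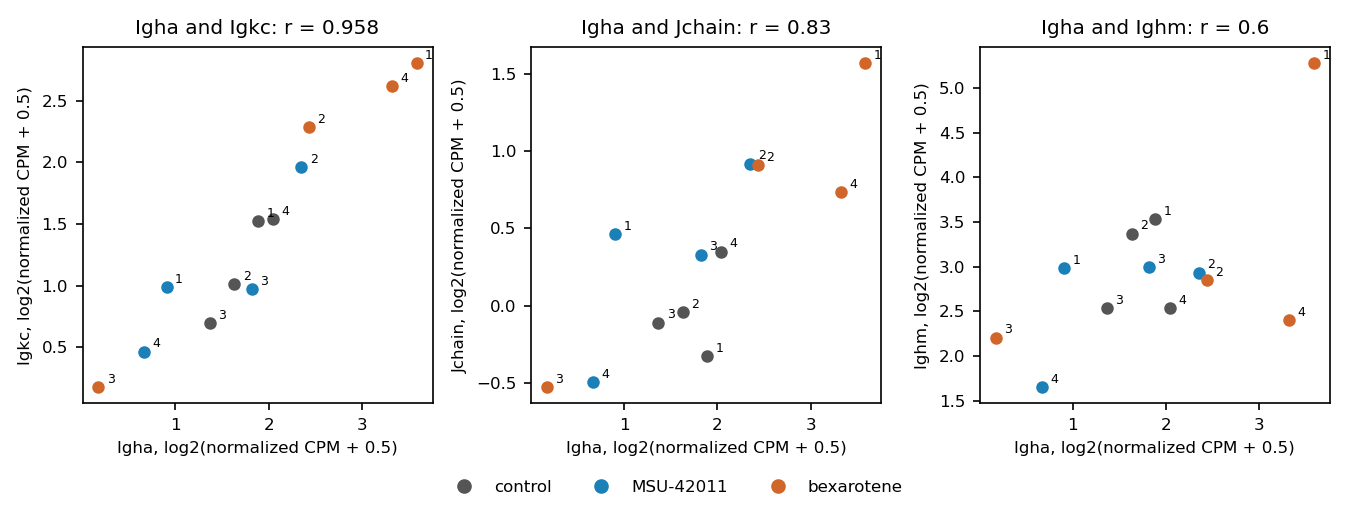
Igha (x axis) against Igkc, Jchain and Ighm (y axes), each as log2(normalized CPM + 0.5), in 12 tumors colored by group and marked by replicate number. Igkc follows Igha from bexarotene replicate 3 at the low end to bexarotene replicate 1 at the high end (r = 0.958), while in the Ighm panel bexarotene replicate 1 stands alone at the top.

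**Figure D4:**
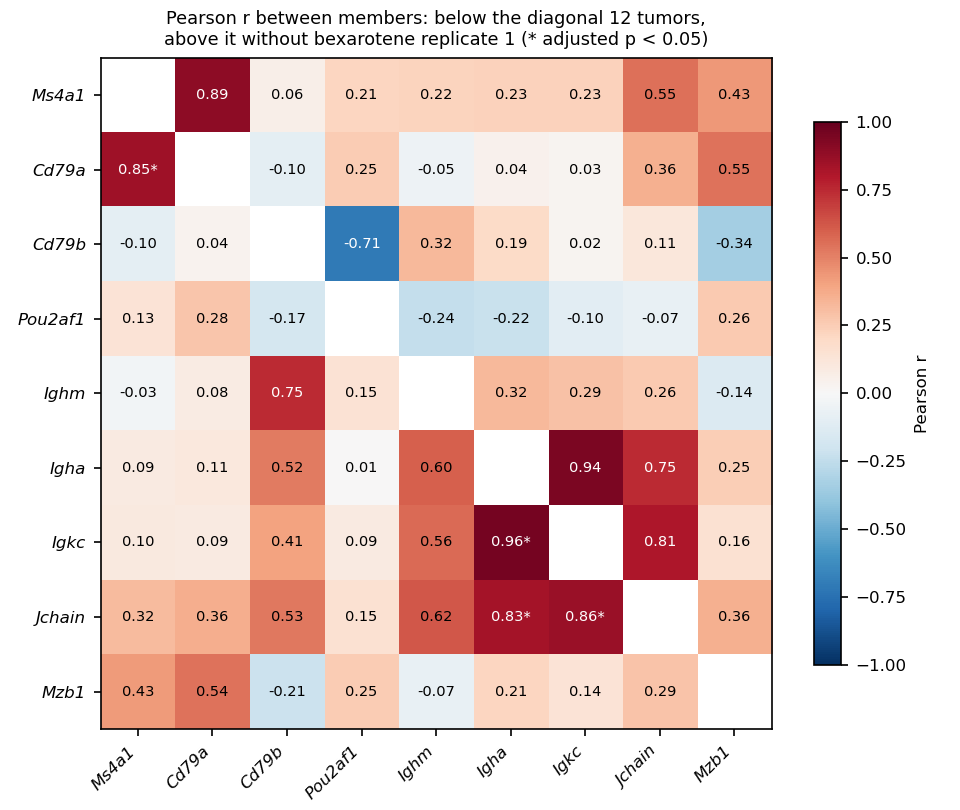
Pearson's r between each pair of the 9 genes on the log2(normalized CPM + 0.5) scale, over 12 tumors below the diagonal and over 11 tumors without bexarotene replicate 1 above it. Color gives r from −1 to 1, and an asterisk marks the 4 pairs whose permutation p passed the threshold after adjustment over 36 pairs (tested over 12 tumors only).

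Ratios of antibody chains per length rest on the same counts as the correlations above, so they are a description and not separate support. The ratio of Igha to Igkc in FPKM lay between 0.271 (MSU-42011 replicate 1) and 0.606 (MSU-42011 replicate 3), a 2.24-fold range with a median of 0.418. The ratio of Ighm to Igkc lay between 0.283 (bexarotene replicate 4) and 2.18 (bexarotene replicate 3), a 7.71-fold range.

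IgM was the leading heavy chain RNA in 11 of 12 tumors. Of all heavy chain constant region FPKM, Ighm took between 34.98% and 79.1%. Igha took 18.6%, 17.8%, 23.9% and 33.6% in controls, 12.04%, 32.1%, 24.1% and 24.2% with MSU-42011, and 19.3%, 37.8%, 10.6% and 60.9% with bexarotene. The exception was bexarotene replicate 4, where Igha held 155 of 241 heavy chain counts (64.3%, Wilson 95% interval 58.1% to 70.1%). Mean shares of Igha in FPKM were 23.5% ± 7.3 in controls, 23.1% ± 8.3 with MSU-42011 and 32.2% ± 22.3 with bexarotene (SD, n = 4 each). The difference of 8.72 percentage points between bexarotene and control did not exceed the spread (exact two-sided permutation p = 0.571, adjusted over 3 comparisons p = 0.857), and it was −0.861 without bexarotene replicate 4 and 13.0 without bexarotene replicate 1.

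**Figure D5:**
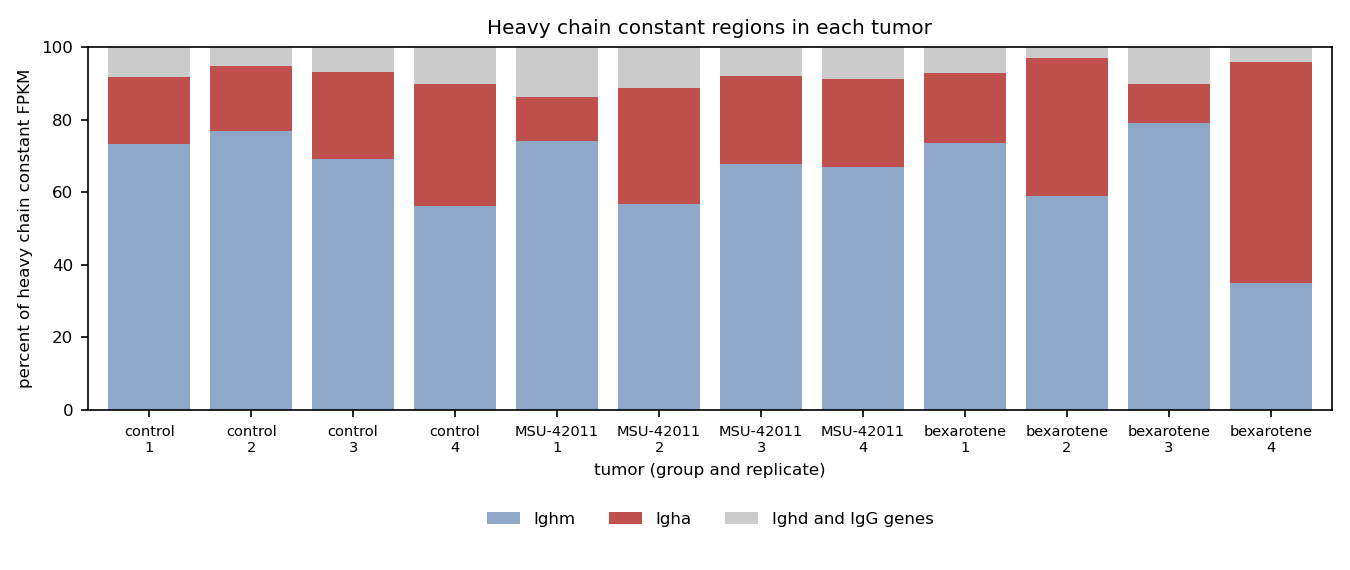
Share of heavy chain constant region FPKM (y axis, percent) from Ighm, from Igha and from Ighd with the IgG genes, in each of the 12 tumors (x axis). Ighm is the largest part in 11 tumors, and in bexarotene replicate 4 Igha is the largest at 60.9%.

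The remaining constant regions were rare. The IgD gene Ighd had 173 counts over 12 tumors, and the IgG genes together had 64 of the 3649 heavy chain counts. Of these 64, 33 were in bexarotene replicate 1, and MSU-42011 replicates 1 and 2 had 9 and 11 while no other tumor had more than 3. The IgE gene Ighe had 0 counts in all tumors, which allows up to 3 counts in each. The lambda light chain genes Iglc1, Iglc2 and Iglc3 had 23 counts beside 653 for Igkc, which is 3.4% of light chain constant counts (Wilson 95% interval 2.28% to 5.05%), and no control tumor had any. Counts on all immunoglobulin genes summed to between 5.77 and 66.1 CPM, with 66.1 in bexarotene replicate 1 and at most 21.3 elsewhere.

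Variable (V) segments, which form part of each antibody chain, were covered by few reads. Different B cell clones can use the same segment, so a leading segment does not identify a clone. Kappa V segments had 215 counts over 12 tumors on 42 of 100 listed segments, heavy V segments had 21 counts and lambda V segments 7. Near-identical V segments can share reads, and how such reads were counted is not given in the sources used here, so single segments are uncertain. The most counted kappa segment took between 11.8% (2 of 17 counts, Wilson 95% interval 3.29% to 34.3%) in control replicate 4 and 60.0% (6 of 10 counts, interval 31.3% to 83.2%) in MSU-42011 replicate 4. In bexarotene replicate 1, with 69 kappa V counts on 17 segments, the leading segment Igkv1-110 (level with 1 other) held 13.0% (interval 7.02% to 23.0%). Igkv1-110 was also the most counted segment in control replicate 2 and MSU-42011 replicate 4, and had the most counts over all tumors (24).

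In the other tumors the most counted kappa segment was Igkv10-96 (control replicate 1), Igkv2-109 (control replicate 3, level with others), Igkv4-80 (control replicate 4, level with others), Igkv3-12, Igkv6-17 and Igkv1-117 (MSU-42011 replicates 1, 2 and 3), and Igkv6-15, Igkv3-5 and Igkv1-135 (bexarotene replicates 2, 3 and 4, the last level with 1 other). Mean shares of the leading segment were 31.5% ± 16.2 in controls, 42.1% ± 15.8 with MSU-42011 and 25.2% ± 10.9 with bexarotene (SD, n = 4 each; exact permutation p between 0.171 and 0.543, adjusted p between 0.514 and 0.543). Kappa V counts per tumor ran from 4 to 69, and a leading share depends on how many counts there are, so the shares are not comparable across depths. The difference between bexarotene and control was −2.23 percentage points without bexarotene replicate 1 (exact permutation p = 0.857). The same share of heavy V segments was not compared between groups, since 6 of 12 tumors had 0 heavy V counts and no tumor had more than 8.

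Other genes of the B lineage were low as well. Of 20 further B lineage genes, 10 passed the filter, 0 were called in any comparison, and 8 of the 10 had a log2 fold change above 0 with bexarotene against control (median 0.56) and 7 with MSU-42011 (median 0.14). With bexarotene it was 5 of 10 once replicate 1 was left out (median −0.028). Their levels summed to 33.7 to 37.9 CPM in controls, 33.3 to 42.6 with MSU-42011 and 29.0 to 98.0 with bexarotene, where 98.0 was replicate 1. The genes of the list with the highest FPKM were Bach2, a transcriptional repressor, at a mean of 6.46 FPKM, the tetraspanin Cd37 at 4.10, Cd180 at 2.54 and Cd72 at 2.18. For Cd37 the log2 fold change with bexarotene was 1.24 ± 0.59 (edgeR adjusted p = 0.786), and its highest level, 17.1 CPM, was in bexarotene replicate 1 against at most 5.57 CPM elsewhere. Pax5, the defining B lineage transcription factor, chosen here after its values were seen, was close to 0, with 0 to 6 counts per tumor.

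Of 15 further plasma cell genes, 12 passed the filter and 0 were called. Their log2 fold changes were above 0 for 9 of the 12 with bexarotene (median 0.13) and for 5 with MSU-42011 (median −0.032). Leaving out bexarotene replicate 1 gave 7 of 12 with bexarotene (median 0.079). The leading genes were Xbp1, the transcription factor of the unfolded protein response, at 1095 FPKM, Edem2 at 83.2, Txndc5 at 69.5 and Fkbp11 at 60.8 FPKM. Secretory epithelium also uses these genes, and the 7 mammary epithelial markers summed to at least 3017 CPM in every tumor. Xbp1 had a log2 fold change of −0.45 ± 0.20 with bexarotene (edgeR adjusted p = 0.766). Tnfrsf17, the plasma cell receptor also called BCMA and chosen after its values were seen, had 0 counts in 9 of 12 tumors and at most 2.

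Of 13 genes that carry the signal of the B cell receptor inside the cell, all 13 passed the filter and 0 were called. With bexarotene 9 of 13 had a log2 fold change above 0 (median 0.56), and with MSU-42011 also 9 (median 0.026). The count with bexarotene was 3 of 13 without replicate 1 (median −0.17), so the direction of the list rested on that tumor. The most abundant were Ptpn6, an inhibitory phosphatase, at 53.3 FPKM, the kinase Lyn at 28.6, the phospholipase Plcg2 at 11.95 and the adaptor Blnk at 9.29. Their log2 fold changes with bexarotene were 0.18, −0.11, −0.18 and −0.41. Myeloid cells express several of these genes too, and 8 of the 13 were highest in bexarotene replicate 1, where macrophage markers were highest for 10 of 10.

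Lymph nodes also hold many B cells. Of 8 genes of lymph node stroma and high endothelium, 1 (Ltb) passed the filter, and Ccl19, Ccl21a and Chst4, named after their values were seen, were at 0 counts in all 12 tumors. Another 4 of the 8, also named after their values were seen, were highest in bexarotene replicate 1. Their counts there were 108 for Ltb, 40 for Cxcl13, 11 for Tnfsf11 and 5 for Madcam1. Whether lymph node tissue was present was not tested. The list summed to 0.801 to 3.08 CPM in controls, 1.43 to 3.03 with MSU-42011 and 0.967 to 6.38 with bexarotene, with 6.38 in replicate 1. Of 5 markers of plasmacytoid dendritic cells, which also express some B lineage genes, 2 passed the filter, and their sum ran from 2.22 to 7.74 CPM.

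The genes most like Jchain and Cd79a were named by Spearman's rho over 12 tumors among the 15504 tested genes, leaving out members and immunoglobulin segments. For Jchain they were Slc39a5 (rho = 0.867, Pearson's r = 0.802), Vmp1, Gm12166, Itpk1, Gm9929, Mllt10, Sdad1, Cdc42ep2, Rps6kb1 and Npr3, down to rho = 0.797. Without bexarotene replicate 1 their rho lay between 0.736 and 0.900. Its rho with Igkc, at 0.860, and with Igha, at 0.825, lay within the range of these 10 genes. For Cd79a they were Car11 (rho = 0.937, r = 0.759), Dtwd2, Tbc1d4, Gm15265, Nynrin, Plcxd2, B930059L03Rik, B230303O12Rik, Gtse1 and BC021767, down to rho = 0.817, and without bexarotene replicate 1 between 0.780 and 0.945. None of these 20 genes is on the B lineage or plasma cell lists. With this many genes ranked over 12 tumors, values of this size are given as a description only.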

How the data were processed

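Poly(A) RNA-seq libraries of 12 MMTV-Neu mammary tumors were grouped by the submitters' labels, 4 per diet. The authors deposited raw read counts per gene, without normalization, and FPKM values, normalized by them for library size and gene length. The submitters' processing notes name STAR 2.6.1d, featureCounts 1.5.0-p3 and DESeq2; the strand setting and build are not given in the sources used here. Nothing states that replicates were processed in separate batches. Counts were normalized by TMM and filtered with filterByExpr at its defaults (minimum count 10, minimum total 15) in edgeR 4.0.16 (R 4.3.3), and tested by its quasi-likelihood F test with 1 mean per group over all 12 tumors, Benjamini-Hochberg adjustment over all tested genes and a threshold of 0.05. The code was checked on simulated counts. Single values were compared by exact two-sided permutation tests (SciPy 1.17.1), whose smallest p with 4 against 4 tumors is 0.0286. Correlations used a pseudocount of 0.5 CPM. Alternatives were DESeq2 1.42.0, its size factors within edgeR, limma 3.58.1 on log2 FPKM with 1 or 0.1 added, other filters, a replicate block and each tumor left out. The members and the 12 gene lists were chosen with earlier results of these data known. The text names all members, up to 4 genes per described list by highest mean FPKM, the 10 genes most like Cd79a and Jchain by rho, and the leading kappa V segment of each tumor; genes outside this rule are marked in the text. Replicates were tumors of separate mice. Same-numbered tumors of different groups shared no pairing in the labels, and the correlation of their deviations from the group means lay between −0.352 and 0.349, over 0.1 in 4 of 12 pairs.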

Additional observations from a re-analysis of the deposited data

Results flagged for a closer look

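Within groups of 4 tumors, 30 sets of values were checked for a tumor far from the other 3 (Dixon's test at the 95% level), and 7 met it. Chance alone gives about 1 in 20 for continuous values. Values at or near 0 counts are not continuous, and a single count beside 3 tumors at 0, as in both sets of Ms4a1 below, meets the criterion by construction. The normalized CPM of Ighm was 38.3 in bexarotene replicate 1 against 4.11 to 6.72 in the other bexarotene tumors, and 2.64 in MSU-42011 replicate 4 against 7.14 to 7.47. Cd79b stood at 1.88 CPM in bexarotene replicate 1 against 0 to 0.122. Cd79a stood at 1.09 CPM in MSU-42011 replicate 2 against 0.270 to 0.293, and at 0.374 in control replicate 3 against 0 to 0.0473. Ms4a1 was 0.0534 CPM in control replicate 3 and 0.0476 in bexarotene replicate 2, each from 1 count, where the other 3 tumors had 0. Igha, Igkc and Jchain had no such tumor in any group.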

How the results depend on the processing

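No member was called under any alternative run. The call count over all genes was 0 in each of the 4 tests, and in DESeq2 it was 5 among the 3 groups, 1 and 6 for MSU-42011 and bexarotene against control and 25 between both agonists, and it was 1 for bexarotene against control with limma on log2(FPKM + 0.1) and on log2(FPKM + 1) without a filter. Without MSU-42011 replicate 2 it was 1 among the 3 groups and 1 for bexarotene against control, and 0 in the other fits that left out 1 tumor. With the replicate number as a block it stayed at 0 in all 4 tests, and the log2 fold change of Jchain with bexarotene was 1.14; the block changed no call. Among settings that kept all tumors no log2 fold change of a member turned direction. In fits without 1 tumor (range from lowest to highest), MSU-42011 against control ran from −0.15 to 0.76 for Pou2af1, 0.29 to 1.01 for Jchain, −0.66 to 0.056 for Igha and −0.54 to 0.18 for Igkc, bexarotene against control ran from 0.46 to 1.38 for Pou2af1 and 0.86 to 1.74 for Jchain, and for Ighm it ran from −0.60 to 1.08 and MSU-42011 against bexarotene from −1.43 to 0.24. The Igha share of heavy chain FPKM ran from −3.32 to 3.35 percentage points for MSU-42011 against control, −0.861 to 15.9 for bexarotene against control and −16.3 to 0.517 for MSU-42011 against bexarotene. Correlated member pairs numbered 3 to 6 in such fits, 5 with group means removed and 5 with bexarotene replicate 1 also left out. The last setting, and the gene lists without bexarotene replicate 1, were added after the data were seen. The causes of these changes were not tested. Shares of heavy V segments could not be fitted. Depth limited Ms4a1, Cd79a, Cd79b and Mzb1, whose counts reached 0 in at least 1 tumor each.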

Other observations

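Genes for homing, survival and transport of antibody-secreting cells and their product were measured in the same tumors. Of 10 such genes, 7 passed the filter and 0 were called by edgeR in any comparison. The most abundant was Pigr, the receptor that carries dimeric IgA and pentameric IgM across epithelium, at a mean of 72.5 FPKM. Its level was 118 ± 54 CPM in controls, 155 ± 61 with MSU-42011 and 116 ± 36 with bexarotene (SD, n = 4 each), with log2 fold changes against control of 0.40 ± 0.35 for MSU-42011 and −0.02 ± 0.35 for bexarotene (SE). The chemokines Cxcl12 and Ccl25 had means of 19.3 and 7.59 FPKM, and the adhesion molecule Vcam1 6.63 FPKM, with log2 fold changes between −0.03 and 0.41 in both comparisons with control. Tnfsf13, also called APRIL, a survival factor of plasma cells, is named here after its values were seen. It averaged 8.61 CPM in controls, 5.38 with MSU-42011 and 5.50 with bexarotene, with log2 fold changes of −0.68 ± 0.24 and −0.65 ± 0.24 (SE; edgeR adjusted p = 1.000 and 0.762; unadjusted p = 0.0161 and 0.0201). Its counts are uncertain, since the gene Tnfsfm13 spans it on the same strand. In bexarotene replicate 1, where the antibody genes were highest, Pigr stood at 72.6 CPM, within the range of 64.1 to 222 CPM of the other tumors.

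Of 9 germinal centre genes 4 passed the filter, namely S1pr2 (56.6 FPKM), Bcl6 (5.95 FPKM), Fas (5.90 FPKM) and Mybl1 (1.82 FPKM), and 0 were called. Rgs13, named after its values were seen, had 0 counts in all 12 tumors. Of 9 T cell markers 7 passed, and the summed level of the list ran from 6.57 to 13.5 CPM in controls, 7.70 to 14.6 with MSU-42011 and 5.20 to 11.1 with bexarotene. All 7 had a log2 fold change below 0 with bexarotene against control (median −0.36), 6 of 7 without bexarotene replicate 1 (median −0.39), and 0 were called. Cd2 and Cd5, which did not pass and are named after their values were seen, went the other way. Their means were 0.270 and 0.133 CPM in controls and 0.480 and 0.253 CPM with bexarotene. Both were highest in bexarotene replicate 1, at 1.40 and 0.663 CPM.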
